A study of Homo sapiens with 16 samples.

Results

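Nucleolar ribosome biogenesis factors are proteins that guide, modify, cut and fold ribosomal RNA on its way into the 2 ribosomal subunits. Of 10 such genes listed by name (FBL, NOP56, NOLC1, NCL, NPM1, DKC1, GAR1, WDR12, WDR43 and UTP20), 8 had probe sets that the annotation of the array assigns to exactly 1 gene symbol, 12 probe sets among the 19064 of that kind. NOP56 and DKC1 had only probe sets assigned to several symbols (2 and 3) and were not analysed here. All 8 genes with values passed the filter on low values, among 7304 of 11963 genes that did so.

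RNA came from Asp14, a single clone of A673, an established Ewing sarcoma line driven by the fusion transcription factor EWS-FLI1. Every culture carried a doxycycline-inducible hairpin construct against the fusion and the TR vector, and grew in Zeocin and Blasticidin, which select for them. The groups were untreated cells at the moment of doxycycline addition (0 h, 4 arrays) and cells with 1 ug/ml doxycycline for 18 h or 36 h (3 arrays each) or for 53 h, 72 h or 96 h (2 arrays each), which makes 16 Affymetrix arrays. No untreated array came from a later time. Loss of the fusion therefore cannot be told apart from the drug or from hours in culture. The labels number the replicates without saying that cultures were separate. A p-value here therefore sets a change only against the spread among these samples, which may be technical.

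FLI1, read as the check of the hairpin, was lower than at 0 h by 3.20 ± 0.14 (SE) on the log2 scale at 18 h and by 3.35 ± 0.16 at 96 h, with limma adjusted p = 4.98e-08 and 2.14e-09. The upper quartile of log2 values lay between 8.08 and 8.18 on the 16 arrays. All 5 measured Ewing sarcoma markers stood above log2 4 at 0 h, and 0 of 12 measured markers of blood, epithelium and endothelium stood above log2 4 on any array. RNA quality was read as the ACTB signal at the 3′ end less that at the 5′ end (log2), which was 2.09 to 2.45 at 36 h, against 1.47 to 2.06 at 0 h, and 2.34 and 1.83 on the 2 arrays of 53 h. At 18 h, 72 h and 96 h it stayed within the span of the 0 h arrays. The same measure of GAPDH was 0.135 to 0.179 at 18 h and 0.171 to 0.190 at 36 h, above the 0.0676 to 0.134 of the 0 h arrays, and at 53 h it was 0.223 and 0.0726. The later times held arrays on either side of the highest 0 h array, with 0.0305 to 0.140 at 72 h and 0.0499 to 0.168 at 96 h. The part of these measures in the results was not tested.

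Ribosome production starts in the nucleolus, where RNA polymerase I transcribes a long precursor that holds most of the ribosomal RNA. Small nucleolar RNAs in box C/D particles direct ribose methylation of that precursor, and those in H/ACA particles direct its pseudouridylation, while a large assembly called the small subunit processome folds and cuts it and other factors build the large subunit. Fast-growing tumour cells make many ribosomes, and MYC, which binds the E-box sequence, is a known activator of many of these genes.

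RNA of these factors was lower after doxycycline and stayed lower through 96 h. At 18 h, 7 of the 8 genes fell against 0 h (limma, adjusted p under 0.05), where 14.7% of all tested genes fell. The count was 7 of 8 at 36 h against a background of 32.1%, 7 of 8 at 53 h against 34.5%, 8 of 8 at 72 h against 39.2% and 8 of 8 at 96 h against 35.7%. None of the 8 rose at any of these times, where 14.8%, 33.2%, 31.8%, 29.3% and 25.1% of all tested genes rose. The median log2 change of the 8 genes over the 5 times in order was -0.50, -1.19, -1.04, -1.11 and -0.94, beside medians over all tested genes of 0.02, 0.02, -0.01, -0.11 and -0.10. At 53 h the log2 changes were -0.59 ± 0.05 for FBL, -1.13 ± 0.14 for NOLC1, -0.95 ± 0.11 for GAR1, -1.12 ± 0.07 for NCL, -0.86 ± 0.23 for WDR43, -2.09 ± 0.20 for UTP20 and -1.40 ± 0.12 for WDR12. The range over the 7 genes was thus set by FBL and UTP20, and NPM1 missed the threshold at that time. For each of the 8 genes, every treated array lay below every 0 h array at each time, NPM1 by the narrowest margin. Such separation, in either direction, held for 2984, 4811, 5525, 5771 and 5006 of 7304 tested genes over the 5 times in order. The F test of limma over the time course called 8 of 8, where it called 84.0% of all tested genes. In bulk RNA, fewer cells of a type and less RNA per cell cannot be told apart.

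**Figure D1:**
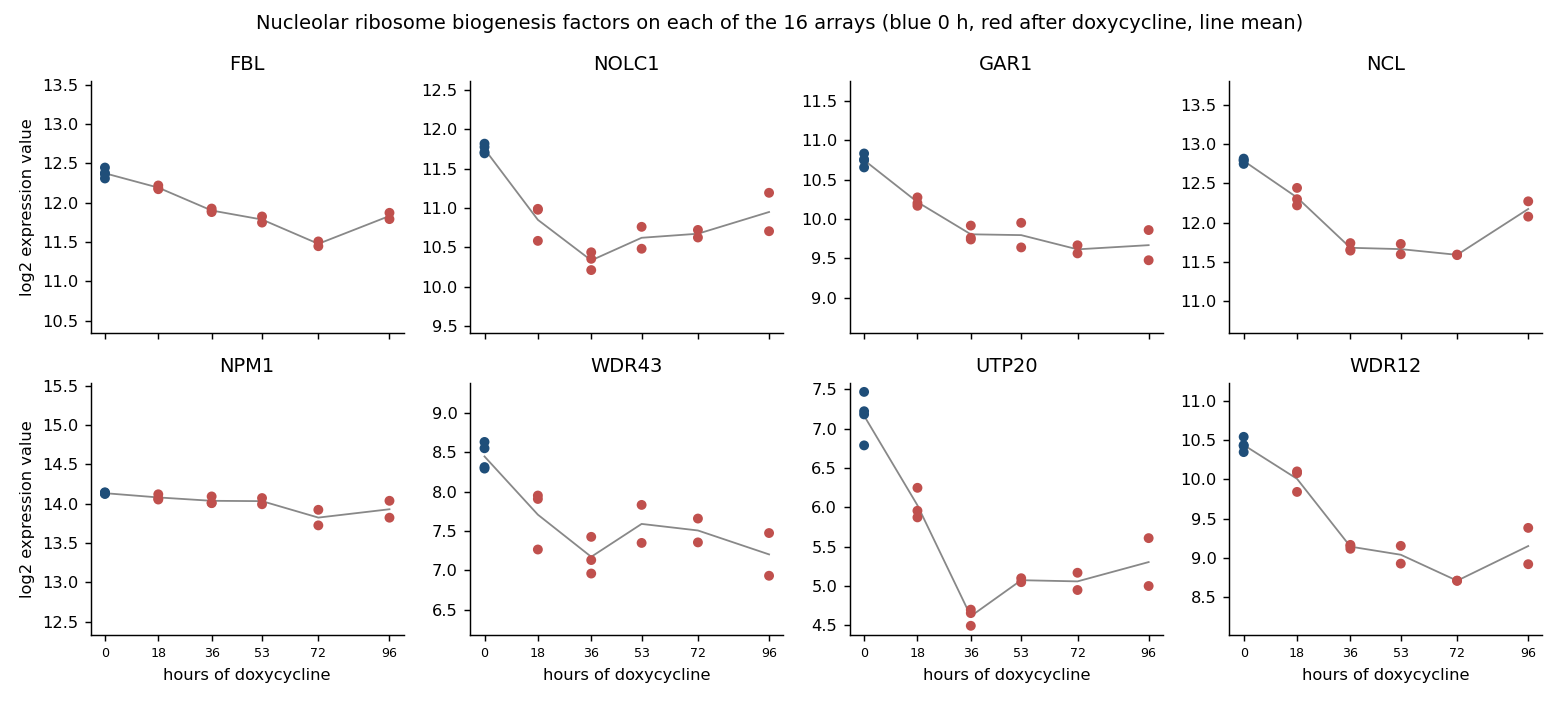
Log2 expression of the probe set used for each of the 8 genes on each of the 16 arrays, by hours of doxycycline; each point is 1 array and each line joins the group means. In every panel the treated arrays lie below the 4 arrays of 0 h, and UTP20 comes down to a mean of 4.62 at 36 h while NPM1 stays between 13.7 and 14.1.

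Fibrillarin (FBL), the methyltransferase of box C/D particles, read 12.31, 12.38, 12.36 and 12.44 (log2) on the 0 h arrays, 12.18, 12.17 and 12.22 at 18 h, 11.88, 11.89 and 11.92 at 36 h, 11.82 and 11.75 at 53 h, 11.51 and 11.45 at 72 h, and 11.79 and 11.87 at 96 h. Its arrays were tightly grouped at each time and stepped down through 72 h. Against 0 h, the 18 h level differed by -0.18 ± 0.05 (log2, SE), the 72 h level by -0.90 ± 0.05 and the 96 h level by -0.54 ± 0.05, with limma adjusted p = 0.0123, 7.36e-09 and 2.14e-06. At 72 h FBL thus stood at 53.7% of its 0 h level. SNU13, which binds the kink-turn of box C/D RNA, was lower at all 5 times, by 0.48 ± 0.10 on the log2 scale at 18 h and 0.74 ± 0.11 at 96 h (limma adjusted p = 0.00256 and 5.59e-05). NOP58, the other core protein of these particles, was not analysed here.

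NOLC1 (Nopp140), a chaperone of small nucleolar ribonucleoproteins, read 11.70, 11.82, 11.78 and 11.71 at 0 h, 10.58, 10.99 and 10.98 at 18 h, 10.21, 10.44 and 10.36 at 36 h, 10.76 and 10.48 at 53 h, 10.72 and 10.63 at 72 h, and 11.19 and 10.71 at 96 h. It was already clear of the 0 h arrays at 18 h and had its lowest mean at 36 h. Its log2 change was -0.90 ± 0.12 at 18 h, -1.42 ± 0.12 at 36 h and -0.80 ± 0.14 at 96 h (limma adjusted p = 0.000223, 3.94e-07 and 0.00026). Both other probe sets of NOLC1, fitted on their own, changed by more: by -2.02 ± 0.17 and -2.33 ± 0.25 at 36 h and by -1.14 ± 0.19 and -1.47 ± 0.28 at 96 h. All 3 passed the threshold at all 5 times.

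GAR1, a core protein of H/ACA particles, read 10.66, 10.76, 10.75 and 10.83 at 0 h, 10.17, 10.27 and 10.20 at 18 h, 9.74, 9.92 and 9.76 at 36 h, 9.95 and 9.64 at 53 h, 9.56 and 9.67 at 72 h, and 9.86 and 9.48 at 96 h. The arrays of 36 h and later spanned 9.48 to 9.95, all below the 18 h arrays. The log2 change was -0.53 ± 0.10 at 18 h, -1.13 ± 0.11 at 72 h and -1.08 ± 0.11 at 96 h (limma adjusted p = 0.00167, 9e-07 and 3.05e-06). Of the other H/ACA core proteins, NHP2 had a log2 change of -0.15 ± 0.08 at 18 h, where it missed the threshold (limma adjusted p = 0.18), and was lower from 36 h on, by 1.12 ± 0.09 at 72 h. NOP10 was lower by 0.42 ± 0.08 at 36 h (limma adjusted p = 0.000622) and had a change of -0.11 ± 0.10 at 96 h, which missed the threshold (limma adjusted p = 0.346).

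Nucleolin (NCL), an abundant RNA-binding protein that acts early on the precursor, read 12.82, 12.75, 12.79 and 12.79 at 0 h, 12.22, 12.30 and 12.44 at 18 h, 11.66, 11.65 and 11.74 at 36 h, 11.73 and 11.60 at 53 h, 11.60 and 11.59 at 72 h, and 12.27 and 12.08 at 96 h. Levels between 36 h and 72 h lay close together, and both 96 h arrays stood above all of them while staying below 0 h. The log2 change was -0.47 ± 0.06 at 18 h, -1.19 ± 0.07 at 72 h and -0.61 ± 0.07 at 96 h (limma adjusted p = 0.000214, 6.91e-09 and 9.1e-06), which is 43.7% of the 0 h level at 72 h and 65.4% at 96 h.

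Nucleophosmin (NPM1), a histone-binding and ribosome-export protein of the outer nucleolus, had the smallest changes of the 8 when read by its brightest probe set. That probe set averaged 14.13 ± 0.01 at 0 h (SD, n = 4), read 14.05, 14.07 and 14.12 at 18 h, 14.01, 14.01 and 14.09 at 36 h, 14.07 and 13.99 at 53 h, 13.92 and 13.72 at 72 h, and 14.04 and 13.82 at 96 h. Its log2 changes at 18 h, 36 h and 53 h were -0.05 ± 0.06, -0.10 ± 0.06 and -0.10 ± 0.06, and missed the threshold (limma adjusted p = 0.503, 0.14 and 0.171). It was lower by 0.31 ± 0.06 at 72 h and by 0.20 ± 0.06 at 96 h (limma adjusted p = 0.000579 and 0.0123), and the 96 h call was lost without 96 h replicate 2 (change -0.10, adjusted p = 0.247) and without a trend in eBayes (adjusted p = 0.0503).

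The other 2 probe sets of NPM1 were lower at the early times too. Fitted on their own, these were lower at 18 h by 0.23 ± 0.05 and 0.27 ± 0.06 (limma adjusted p = 0.00637 and 0.00709) and at 96 h by 0.49 ± 0.06 and 0.42 ± 0.07. The probe set used here reads near the top of the scale of the array. Over all 12 probe sets of the 8 genes fitted one by one, 11 fell at 18 h where 14.3% of 10941 tested probe sets fell, 11 at 36 h (background 31.7%), 11 at 53 h (33.2%), 12 at 72 h (36.9%) and 12 at 96 h (34.3%). The exception at the first 3 times was the brightest NPM1 probe set. Against 53 h, 3 of 12 were lower at 72 h (background 8.91%). These were that of FBL, by 0.31 ± 0.06, and the 2 dimmer ones of NPM1, by 0.30 ± 0.07 and 0.30 ± 0.08.

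**Figure D2:**
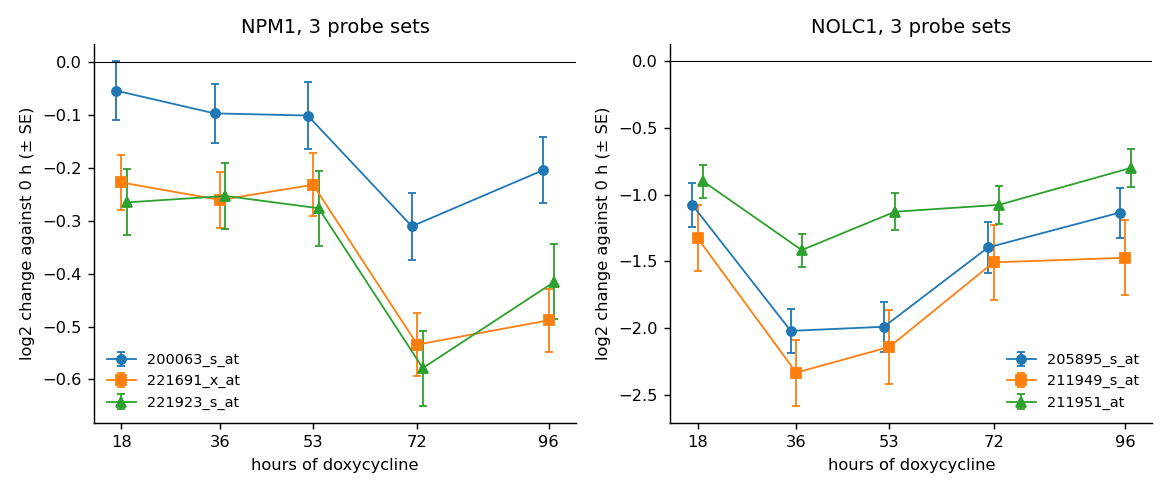
Log2 change against 0 h of each probe set of NOLC1 and NPM1, the genes with 3 probe sets each, at 18 h to 96 h of doxycycline; points are limma estimates and bars are standard errors. The probe set used for each gene shows the smallest change at each of the 5 times, for example -0.10 for NPM1 at 36 h beside -0.26 and -0.25.

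In the small subunit processome, WDR43 (UTP5 in yeast) belongs to the subcomplex that joins the precursor first and is linked to its transcription. It read 8.31, 8.63, 8.55 and 8.29 at 0 h, 7.26, 7.95 and 7.91 at 18 h, 6.96, 7.42 and 7.13 at 36 h, 7.83 and 7.35 at 53 h, 7.35 and 7.66 at 72 h, and 7.47 and 6.93 at 96 h. WDR43 had the largest standard errors of the 8 genes, and its treated times overlapped one another. It was lower by 0.74 ± 0.20 at 18 h, 1.28 ± 0.20 at 36 h and 1.25 ± 0.23 at 96 h (limma adjusted p = 0.0137, 7.49e-05 and 0.00034). The 18 h call was lost without 18 h replicate 1 (adjusted p = 0.0776) and the 53 h call without 53 h replicate 2 (adjusted p = 0.0825). HEATR1 (UTP10 in yeast), its partner in that subcomplex, was lower by 0.52 ± 0.14 at 18 h and 1.23 ± 0.16 at 96 h (limma adjusted p = 0.0128 and 1.69e-05), and the 18 h call was lost without 18 h replicate 1 (adjusted p = 0.0725).

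UTP20, a very large scaffold protein of the processome, had the largest change of the 8 genes. It read 6.79, 7.22, 7.18 and 7.47 at 0 h, 5.87, 5.96 and 6.25 at 18 h, 4.70, 4.49 and 4.66 at 36 h, 5.05 and 5.10 at 53 h, 5.17 and 4.95 at 72 h, and 5.61 and 5.00 at 96 h. The fall came in 2 steps, with the 18 h arrays clear of both the 0 h and the 36 h arrays. The log2 changes at 18 h, 36 h, 72 h and 96 h were -1.14 ± 0.17, -2.55 ± 0.17, -2.11 ± 0.20 and -1.86 ± 0.20 (limma adjusted p = 0.000451, 4.88e-08, 5.23e-07 and 3.72e-06). At 36 h this is 17.1% of the 0 h level, or 5.85-fold lower. From 36 h on it lay close to the filter at log2 4, where background adjustment makes sizes of change less certain.

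For the large subunit, WDR12, which forms a complex with PES1 and BOP1, read 10.43, 10.44, 10.35 and 10.54 at 0 h, 9.84, 10.10 and 10.08 at 18 h, 9.17, 9.12 and 9.15 at 36 h, 9.16 and 8.93 at 53 h, 8.71 and 8.71 at 72 h, and 9.38 and 8.92 at 96 h. The lowest arrays were those of 72 h, and all treated arrays lay below 0 h. It was lower by 0.43 ± 0.11 at 18 h, 1.73 ± 0.12 at 72 h and 1.29 ± 0.12 at 96 h (limma adjusted p = 0.00906, 2.93e-08 and 1.18e-06), the 18 h call being lost without 18 h replicate 1 (adjusted p = 0.0524). PES1 was lower by 0.62 ± 0.11 at 18 h, 1.08 ± 0.11 at 36 h and 0.60 ± 0.12 at 96 h (limma adjusted p = 0.00104, 1.3e-06 and 0.000898). BOP1 was not analysed here.

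**Figure D3:**
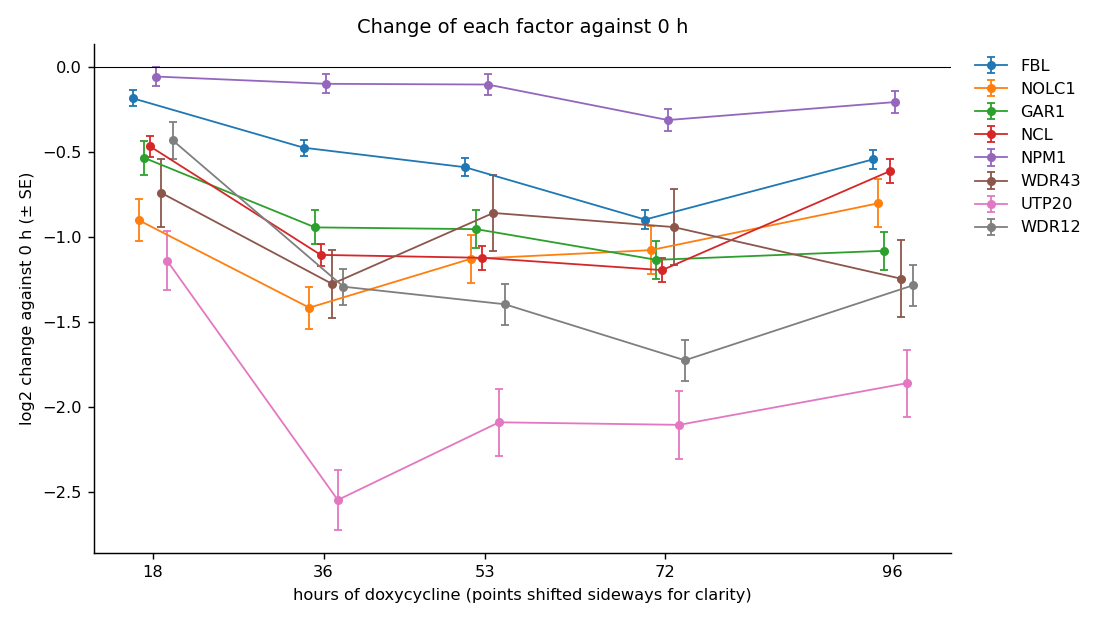
Log2 change of the 8 genes against 0 h at 18 h, 36 h, 53 h, 72 h and 96 h of doxycycline, as limma estimates with standard errors. All 40 changes are below 0, from -0.05 for NPM1 at 18 h to -2.55 for UTP20 at 36 h.

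Each time was also compared with the one before it, beyond the first step from 0 h given above. At 36 h, 6 of the 8 genes were lower than at 18 h (limma), where 22.9% of all tested genes were lower: FBL, NOLC1, NCL, GAR1, WDR12 and UTP20, by 0.29 to 1.41 on the log2 scale. The calls of NOLC1 and GAR1 were lost with replicates 2 and 3 averaged at 0 h, 18 h and 36 h (limma adjusted p = 0.0701 and 0.0614). WDR43 missed the threshold at -0.54 ± 0.21 (limma adjusted p = 0.0562), as did NPM1 at -0.04 ± 0.06. Some alternatives called WDR43. Among them were arrays centred on the median, array weights and the fit without 18 h replicate 1 (limma adjusted p = 0.0402, 0.000333 and 0.00843). At 53 h against 36 h, 0 of 8 passed the threshold of limma in either direction (background 12.6%). An unadjusted limma p under 0.05 was found for 1 of the 8, UTP20, and for 1918 of all 7304 tested genes. At 72 h against 53 h, 1 of 8 was lower (background 11.0%): FBL, by 0.31 ± 0.06 (limma adjusted p = 0.00486). That count was 0 to 2 when single arrays were left out.

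At 96 h, 3 of the 8 genes stood higher than at 72 h (limma), where 17.1% of all tested genes were higher. NCL was higher by 0.58 ± 0.08 (limma adjusted p = 0.000179), FBL by 0.35 ± 0.06 (limma adjusted p = 0.000998) and WDR12 by 0.44 ± 0.14 (limma adjusted p = 0.0322). The call for WDR12 was lost without any of 72 h replicate 1, 72 h replicate 2 or 96 h replicate 1, where its change was 0.44, 0.44 and 0.21. It was also lost with replicates 2 and 3 averaged (limma adjusted p = 0.0725). That averaging touched only 0 h, 18 h and 36 h, so the change of WDR12 stayed at 0.44 and only the shared estimate of spread differed. The other 5 missed the threshold, with changes of 0.28 ± 0.16 for NOLC1, 0.25 ± 0.23 for UTP20, 0.11 ± 0.07 for NPM1, 0.05 ± 0.13 for GAR1 and -0.30 ± 0.26 for WDR43. By the probe set used, 96 h replicate 1 read higher than 96 h replicate 2 for 7 of the 8 genes, FBL being the exception. The upper quartile of the array was also higher on replicate 1, at log2 8.13 beside 8.11. The share of all tested genes that read higher on replicate 1 was not counted. Without replicate 1 the changes of NPM1, GAR1 and UTP20 from 72 h turned to below 0.

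**Figure D4:**
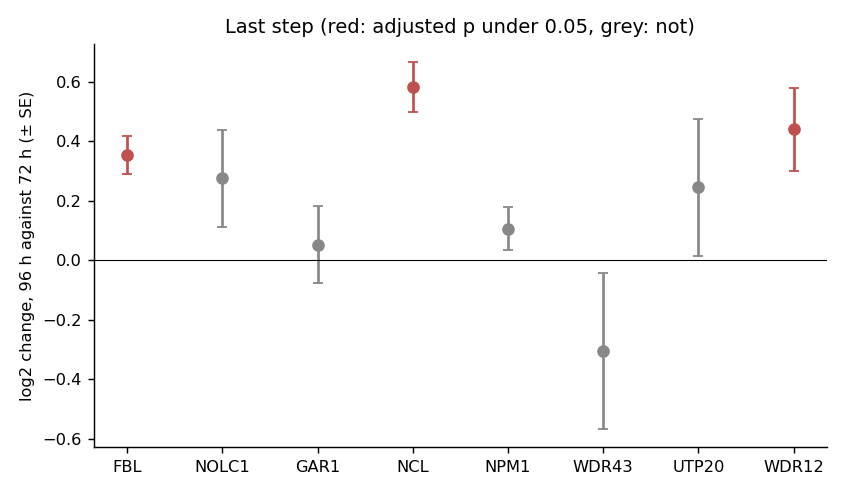
Log2 change of the 8 genes at 96 h against 72 h of doxycycline (2 arrays each), as limma estimates with standard errors; red marks an adjusted p under 0.05. NCL, WDR12 and FBL stand above 0 at 0.58, 0.44 and 0.35, while WDR43 lies at -0.30.

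The start regions of these genes were compared by sequence. RefSeq (GRCh38.p14) gave 11 windows of 300 bases, from 250 before to 50 after a gene start, for 9 of the 10 listed genes. NOLC1 had no window, and the 9 include NOP56 and DKC1, which have no expression values here. The E-box CACGTG, which reads the same on both strands, was in 4 of the 11 windows, those of FBL, GAR1 (1 of its 2 starts), WDR43 and UTP20, beside 7.26% of all 35116 windows. The stretches that hold it are shown because they are what these windows share, with the E-box in capitals.
FBL, chr19:39846356-39846385, minus strand: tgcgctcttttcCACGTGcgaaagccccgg
GAR1, chr4:109815781-109815810, plus strand: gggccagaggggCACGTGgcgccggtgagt
WDR43, chr2:28894658-28894687, plus strand: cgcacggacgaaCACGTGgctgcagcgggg
UTP20, chr12:101280083-101280112, plus strand: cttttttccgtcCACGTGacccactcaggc
The series title sets EWS-FLI1 beside E2F, so E2F-site, ETS-site and GGAA-repeat letters were searched too, on both strands. TTTCCCGC, TTTGGCGC and GGAAGGAA were in 0 of the 11 windows, beside 1.63%, 0.652% and 3.67% of all windows, and CCGGAAGT was in 1, that of the other GAR1 start, beside 4.14%. These are matches of letters and not measured binding. No match says only that these letters are not in the window.

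The 250 bases before the start are shown for UTP20 and NPM1, the genes with the largest and the smallest change at 36 h by the probe set used, with any E-box in capitals. RefSeq gave 2 starts for NPM1, and the stretch shown precedes the second.
UTP20, chr12:101279855-101280104, plus strand: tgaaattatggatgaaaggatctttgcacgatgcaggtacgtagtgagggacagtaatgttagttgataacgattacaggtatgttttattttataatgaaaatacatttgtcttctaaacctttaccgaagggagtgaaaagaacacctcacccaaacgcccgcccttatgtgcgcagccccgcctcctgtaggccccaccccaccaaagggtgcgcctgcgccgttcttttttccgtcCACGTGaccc
NPM1, chr5:171387599-171387848, plus strand: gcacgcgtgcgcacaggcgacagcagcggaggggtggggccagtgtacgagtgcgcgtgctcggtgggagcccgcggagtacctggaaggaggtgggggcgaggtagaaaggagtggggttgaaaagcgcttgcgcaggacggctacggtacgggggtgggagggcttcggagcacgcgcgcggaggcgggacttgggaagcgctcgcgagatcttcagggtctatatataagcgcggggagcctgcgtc
UTP20 has its E-box within the last 10 bases before the start, and neither NPM1 window has one. At 36 h the tested genes with an E-box changed by -2.55 (UTP20), -1.28 (WDR43), -0.94 (GAR1) and -0.47 (FBL). Those with a window but no E-box changed by -1.29 (WDR12), -1.10 (NCL) and -0.10 (NPM1). A link between the E-box and the size of a change was not tested.

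Other ribosome biogenesis genes, taken from 5 lists by step, fell as well. Of 140 tested, 86, 122, 123, 127 and 127 were lower over the 5 times in order (limma, adjusted p under 0.05), which is 61.4%, 87.1%, 87.9%, 90.7% and 90.7%, where 14.7%, 32.1%, 34.5%, 39.2% and 35.7% of all tested genes were lower. At these times 0, 4, 4, 4 and 3 were higher, where 14.8%, 33.2%, 31.8%, 29.3% and 25.1% of all tested genes were higher. Their median log2 change was -0.42, -1.01, -1.02, -1.07 and -0.84 at these times. At 96 h against 72 h, 35 of the 140 were higher and 5 lower, where 17.1% of all tested genes were higher and 10.1% lower. The counts of single lists that follow have the same backgrounds, 14.7% at 18 h and 35.7% at 96 h.

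**Figure D5:**
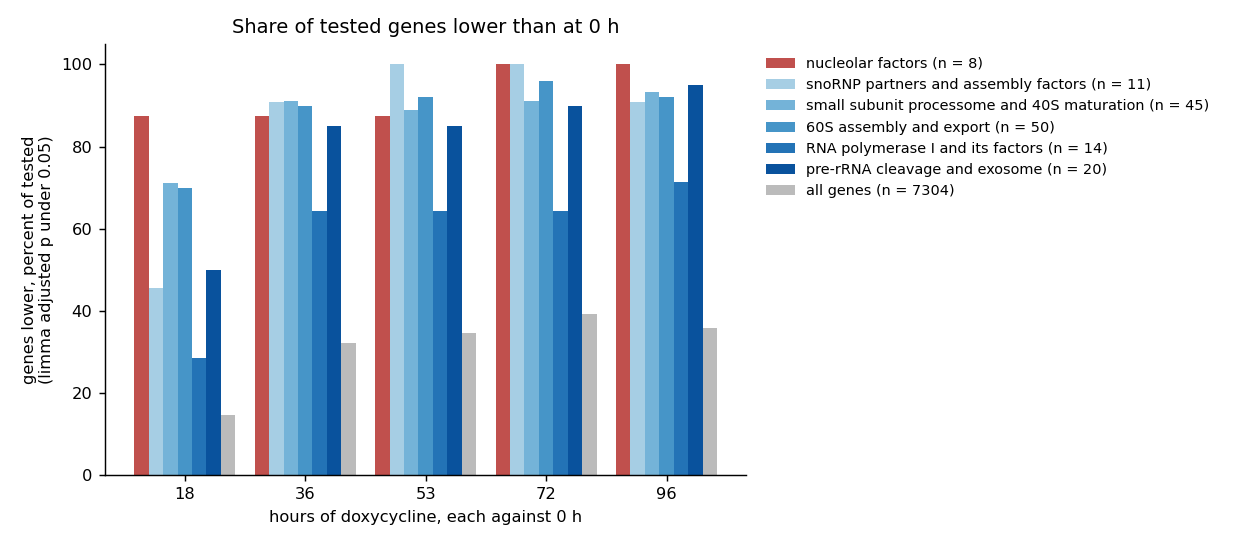
Percent of tested genes lower than at 0 h (limma, adjusted p under 0.05) at 18 h to 96 h of doxycycline, for the 8 nucleolar factors, the 5 lists of other ribosome biogenesis genes and all 7304 tested genes. At 18 h the lists run from 28.6% for RNA polymerase I and its factors to 71.1% for the small subunit processome, beside 14.7% of all tested genes.

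Among partners in small nucleolar ribonucleoprotein assembly, 5 of 11 genes were lower at 18 h and 10 of 11 at 96 h. The largest falls at 96 h were those of TGS1, which makes the trimethylated cap of some of these RNAs (1.48 ± 0.16 on the log2 scale), and of NUFIP1, an assembly factor of box C/D particles (1.36 ± 0.18). Among genes past the threshold the smallest were those of PIH1D1 and SHQ1, by 0.30 ± 0.09 and 0.44 ± 0.13, calls lost without 96 h replicate 1 for PIH1D1 (limma adjusted p = 0.198) and without 96 h replicate 2 for SHQ1 (0.107).

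In the small subunit list, 32 of 45 genes were lower at 18 h and 42 of 45 at 96 h. RRP9, a U3 particle protein, and PNO1, an assembly factor of the small subunit, had the largest fitted falls at 96 h, by 1.69 ± 0.21 and 1.55 ± 0.18, RRP9 to a mean of log2 4.12, close to the filter. MPHOSPH10, another U3 particle protein, was lower by 0.20 ± 0.08 (limma adjusted p = 0.0458), a call that most alternatives lost. RIOK3, a kinase of late small subunit precursors, was the 1 gene of the list that rose, by 0.68 ± 0.09 (limma adjusted p = 1.56e-05). In the large subunit list, 35 of 50 were lower at 18 h and 46 of 50 at 96 h. URB1 and NOL12 had the largest fitted falls at 96 h, by 1.80 ± 0.25 and 1.64 ± 0.16, URB1 to a mean of log2 4.18. NMD3, the export adaptor of the large subunit, rose by 0.43 ± 0.16, and EIF6, which keeps the subunits apart, was lower by 0.55 ± 0.11 at 53 h but higher by 0.31 ± 0.11 at 96 h (limma adjusted p = 0.0317, 0.000417 and 0.0233). Without 96 h replicate 2 the 96 h calls of NMD3 and EIF6 were lost (limma adjusted p = 0.235 and 0.143), and that of NMD3 was also lost without 0 h replicate 2 or 3 (0.0775 and 0.077).

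Of the 14 tested genes of RNA polymerase I and its factors, 4 were lower at 18 h and 10 at 96 h. UBTF, the factor that opens ribosomal DNA, had a log2 change of -0.06 ± 0.16 at 18 h (limma adjusted p = 0.824) and was lower by 0.98 ± 0.16 at 36 h and 0.86 ± 0.18 at 96 h (limma adjusted p = 9.23e-05 and 0.000879). RRN3, which recruits the polymerase, and POLR1B, its subunit, missed the threshold at 18 h (limma adjusted p = 0.0563 and 0.165) and were lower at 96 h by 0.84 ± 0.13 and 0.93 ± 0.18. MYBBP1A and POLR1G were already lower at 18 h, by 1.24 ± 0.16 and 1.06 ± 0.18. TAF1B, of the promoter selectivity factor, was lower by 0.69 ± 0.10 at 96 h. POLR1D, a subunit shared with RNA polymerase III, was higher by 0.91 ± 0.09 at 53 h and lower by 0.49 ± 0.09 at 96 h (limma adjusted p = 1.85e-06 and 0.000546).

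In the list of precursor cleavage and exosome genes, 10 of 20 were lower at 18 h and 19 of 20 at 96 h. POP1 and RPP25, proteins of RNase P and RNase MRP, had the largest fitted falls at 96 h, by 1.96 ± 0.28 and 1.89 ± 0.18. POP1 averaged log2 3.53 at 96 h, below the filter that it passed through other arrays (mean 5.49 at 0 h), and RPP25 averaged 4.24. The sizes and order of changes this close to background, those of RRP9 and URB1 included, are uncertain. C1D, an exosome cofactor, and POP4 were lower by 0.29 ± 0.07 and 0.23 ± 0.10 (limma adjusted p = 0.00303 and 0.0467), and the call of POP4 was lost under most alternatives.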

How the data were processed

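RNA from 16 samples of the A673 clone Asp14 was measured on Affymetrix arrays with 22277 probe sets, 62 of them controls. The authors deposited log2 values for each probe set, and the submitters' processing notes name GCRMA, with version and settings not given in the sources used here. The log2 scale was read from the values. The method corrects background from probe sequences and brings arrays to a common scale, so a change in total RNA per cell is not seen. Depth does not apply to arrays, and their number limits the precision. Samples were grouped by the hours in the labels, and 0 columns of other samples were present.

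Only probe sets with 1 symbol in the platform annotation were named. The brightest probe set on average stood for its gene, and a gene was tested if 2 or more arrays read log2 4 or more. limma 3.58.1 in R 4.3.3 was fitted to all 16 arrays with 1 mean per time and a trended eBayes, and p-values were adjusted by Benjamini-Hochberg over all tested genes with a threshold of 0.05. A second fit took each probe set on its own. The fit over genes was tried on simulated data with independent noise on each array. That trial cannot show what arrays that deviate together would do to the p-values. Levels of different probe sets were not compared. Promoter windows came from RefSeq tables, and plots were made in matplotlib 3.10.9 under Python 3.11.15.

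The genes, lists and tests were chosen with earlier results of these data known. Named genes are the 10 listed, FLI1, direct partners, and for each list the 2 highest and 2 lowest changes at 96 h past the threshold. Of the direct partners, NOP58, BOP1, UTP15, UTP4 and POLR1A were not analysed here, having no probe set with 1 symbol. Same-numbered arrays of 0 h, 18 h and 36 h deviated together across genes (correlations of 0.214 to 0.632 over the 9 pairs). The labels state no pairing, so these data alone are the basis for taking the numbers as pairs. A fit with the replicate block was an alternative, as were other probe set rules, filters, scalings, array weights and leaving out each array.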

Additional observations from a re-analysis of the deposited data

How the results depend on the processing

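The 40 changes of the 8 genes against 0 h stayed below 0 in 1105 recomputed values. As every treated array lay below 0 h, only probe set rules, scalings or the replicate block could turn a sign. With single arrays left out, the genes lower than at 0 h numbered 5 to 7 at 18 h, 7 at 36 h, 6 to 7 at 53 h, 8 at 72 h and 7 to 8 at 96 h, those changed at 36 h against 18 h 6 to 7, at 53 h against 36 h 0, at 72 h against 53 h 0 to 2 and at 96 h against 72 h 2 to 4, and the F test called 8; a group left with 1 array was assumed to vary like the others. Leaving out _x_at and _s_at probe sets dropped FBL, NCL and NPM1, whose results rest on such probe sets alone, and kept 5 of the 8 genes. All 5 were called at 72 h and 96 h against 0 h and by the F test, 0 between 53 h and 72 h, and 1 between 72 h and 96 h. At 72 h against 53 h, averaging all probe sets gave 2 calls, array weights 3, and centring arrays on the median of tested genes, chosen after the data were seen, 0. The shares of all tested genes called at this step under these settings are not given here. These counts therefore do not set the 8 genes apart, and array weights also raised counts over all genes, as given below. The replicate block changed no call among the 8 genes (7, 7, 7, 8 and 8 at 18 h to 96 h against 0 h), and among other named genes it ended those of NOP10 at 72 h, MPHOSPH10 at 96 h and POP4 at 96 h (limma adjusted p = 0.0566, 0.0737 and 0.0514).

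With replicates 2 and 3 averaged the FBL call at 18 h was lost (limma adjusted p = 0.0872) and 4 of 8 were called at 36 h against 18 h, and NPM1 was called at 18 h, 36 h and 53 h when its probe sets were averaged (limma adjusted p = 0.00418, 0.000476 and 0.00124) and at 36 h and 53 h with arrays centred on the median of all probe sets (0.0103 and 0.00801). At 96 h against 72 h, the call of WDR12 was lost under either centring (limma adjusted p = 0.0529 and 0.0562), and with arrays left out the change ranged from -0.0012 to 0.2135 for NPM1, -0.1387 to 0.2454 for GAR1 and -0.0588 to 0.5499 for UTP20; GAR1 came to -0.0205 centred on tested genes. Near 0 at 18 h, NOP10 came to 2e-04 under a second quantile normalization and UBTF ranged from -0.1048 to 0.0331 (0.0304 without 18 h replicate 2). Centring on all probe sets moved the median of all genes to -0.28 at 72 h and -0.29 at 96 h, beside -0.11 and -0.10, and the share of lower calls at 96 h to 70.3%, beside 58.8%, and ended the rises of NMD3 and EIF6. The cause of these differences was not tested.

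Counts over all genes moved more. Without _x_at and _s_at probe sets 4429 genes were tested and 1320, 2854, 2932, 3019 and 2694 were called against 0 h from 18 h to 96 h, beside 2150, 4772, 4845, 5003 and 4440, with 3675 beside 6137 by the F test and, over the 4 steps between neighbouring times, 1907, 562, 718 and 1123 beside 3272, 920, 1215 and 1988. At 18 h array weights gave 3546 and averaging replicates 2 and 3 gave 1269. For 53 h against 36 h these gave 1711 and 388, and averaging gave 1896 for 36 h against 18 h. With arrays left out the 18 h count ranged from 1355 to 2441 and the last 3 steps from 303 to 1153, 467 to 1448 and 1201 to 2223. Dim values limit the sizes given for UTP20, POP1, RPP25, RRP9 and URB1, and where a time has 2 arrays each weighs heavily.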
